A study of Caenorhabditis elegans with 12 samples.

Results

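The genes described here are 10 named genes of the hypoxia and hydrogen sulfide response of Caenorhabditis elegans, chosen by symbol: hif-1, egl-9, vhl-1, rhy-1, cysl-1, cysl-2, cysl-3, sqrd-1, sqrd-2 and ethe-1. Of these, 9 were found by symbol among the 45132 genes of the count table, and sqrd-2 is not analysed here. Gene expression was measured by sequencing of polyA RNA from whole worms on day 1 of adulthood. Worms were raised on bacteria carrying the empty RNAi vector L4440 (control RNAi) or on prp-19 RNAi, and each was used with or without atp-2 RNAi, which gave 4 groups of 3 libraries. The product of prp-19 is a splicing factor, and that of atp-2 is the beta subunit of the mitochondrial ATP synthase. All 4 groups were of the strain glp-4(bn2), whose germline does not develop when worms are kept at the restrictive temperature. The controls carried this allele too, so the comparisons are between worms of the same strain. How much germline each group had was not measured, and germline markers differed between the groups, as given below. In whole worms the RNA of all tissues is mixed. The labels do not say whether the libraries of a group came from separate cultures, so p-values measure only the spread between these libraries.

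HIF-1 is the worm's hypoxia-inducible transcription factor. In oxygen, the prolyl hydroxylase EGL-9 marks HIF-1 and VHL-1, the recognition subunit of an E3 ubiquitin ligase, directs it to degradation. Hydrogen sulfide acts on the same switch through CYSL-1, which binds and restrains EGL-9, and the membrane protein RHY-1 keeps CYSL-1 and HIF-1 activity low. Sulfide itself is oxidised in mitochondria by SQRD-1 and ETHE-1. These are controls on protein and enzyme activity, whereas the values below are mRNA levels.

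Library totals lay between 6731808 and 8802767 reads, and single libraries held 48 to 2750 reads of a member. Values are CPM, read counts brought to a common library size with TMM factors, which correct for differences in composition between libraries. The mRNA of atp-2 was lower after atp-2 RNAi, with log2 fold changes (log2 changes below) of -2.60 on control RNAi and -1.01 on prp-19 RNAi. It was then at 267.0 ± 16.3 CPM on control RNAi and at 504.8 ± 7.45 CPM on the prp-19 label (SD, n = 3 each). The 2 changes differed by 1.59 (edgeR test of the interaction, adjusted p = 3.33e-08). The 2 atp-2 comparisons below thus rest on unequal falls of atp-2 mRNA. The prp-19 comparisons were not at equal atp-2 mRNA either. Without atp-2 RNAi it was lower on the prp-19 label, at 1015.4 against 1620.6 CPM (log2 change -0.67, edgeR adjusted p = 1.54e-06). With atp-2 RNAi it was higher on that label (0.92, edgeR adjusted p = 3.19e-08). The part of these differences in the prp-19 comparisons was not tested. The mRNA of prp-19 went against its label: it was 26.5 ± 1.96 CPM (SD, n = 3) with control RNAi and 54.4 ± 25.9 CPM (SD, n = 3) in the prp-19-labelled libraries. With atp-2 RNAi it was 27.8 ± 0.208 CPM on control RNAi and 29.4 ± 11.4 CPM on the prp-19 label (SD, n = 3 each), ranges that overlapped, with a log2 change of 0.07 (edgeR adjusted p = 0.887). The groups are therefore called by their labels. Replicate 3 of the prp-19-labelled libraries stood apart from replicates 1 and 2 of that group, with a chi-square per degree of freedom of 43 and 23.8, against 1.44 to 9.34 for every other replicate pair. Of 6 sperm markers, 5 were at 0 in every group, and summed germline and oocyte markers were at 51.2 to 213 CPM over the 12 libraries.

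The hypoxia and sulfide genes were lower in the prp-19-labelled worms than in control worms. Without atp-2 RNAi, all 9 genes tested fell in the prp-19 comparison and 0 rose (edgeR quasi-likelihood test, adjusted p under 0.05). The background was high: 58.5% of the 12850 genes tested in that comparison were called, with 28.5% lower and 30.0% higher. With atp-2 RNAi, 8 of the 9 fell in the prp-19 comparison and 0 rose, where 53.0% of all genes were called, 26.5% lower and 26.5% higher. The median log2 change of the 9 genes was -0.84 without and -0.83 with atp-2 RNAi, beside 0.0637 and 0.0268 over all tested genes. All 9 passed the filter on low counts. The prp-19 comparisons without and with atp-2 RNAi share no library, but both came from the same fit with a shared estimate of the spread. They are therefore not independent tests. After atp-2 RNAi, 3 of the 9 were called on control RNAi, beside 34.1% of all genes. On the prp-19 label 0 of the 9 were called after atp-2 RNAi, beside 9.77% of all genes.

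**Figure D1:**
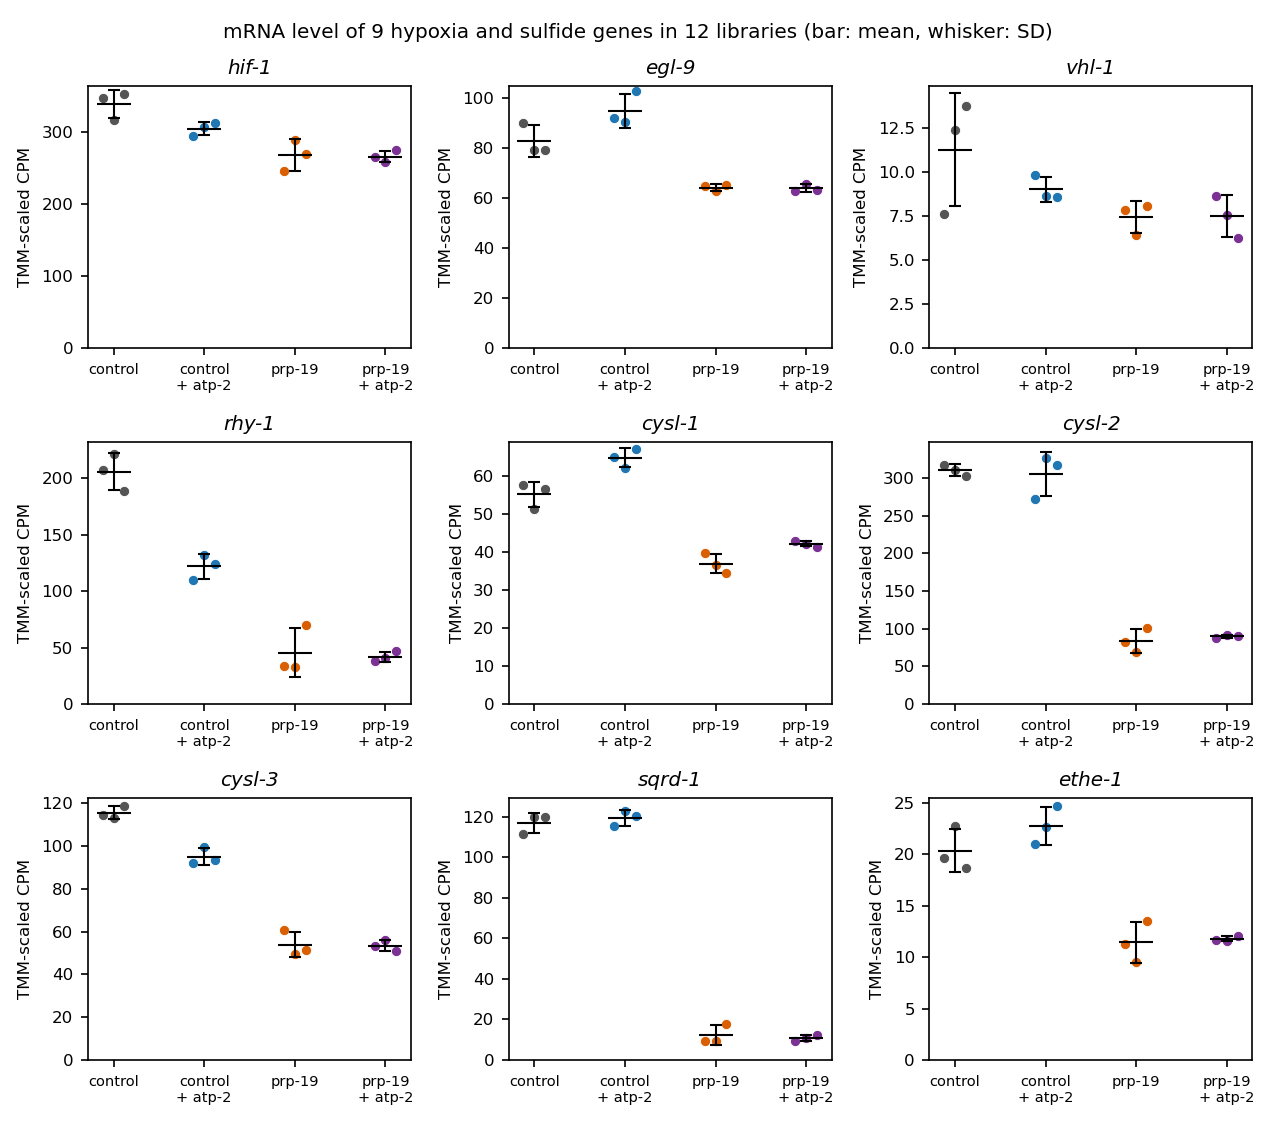
TMM-scaled CPM (y axis) of the 9 genes in each of the 12 libraries, by RNAi group (x axis; prp-19 stands for the prp-19-labelled libraries), with bars for the mean and whiskers for the SD of 3 libraries. The points labelled prp-19 lie below those of the controls for 8 genes, most of all for sqrd-1, whereas the vhl-1 points overlap.

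The transcription factor and the genes of its degradation had log2 changes of -0.59 to -0.20 on the prp-19 label. All 9 genes found are annotated as protein-coding. hif-1 (chromosome V, 20780407 to 20785260, plus strand, WBcel235, 9 introns in its longest transcript) was at 346.1, 316.0 and 352.5 CPM in the control libraries. It was at 245.3, 289.0 and 269.7 CPM in the prp-19-labelled libraries, each below the lowest control. The log2 change was -0.34 (SE 0.0743, edgeR adjusted p = 0.000763), or 0.793 of the control level. With atp-2 RNAi, hif-1 was at 294.1, 306.2 and 312.0 CPM on control RNAi and at 264.6, 258.0 and 274.0 CPM on the prp-19 label. The ranges did not overlap, and the log2 change was -0.20 (SE 0.074, edgeR adjusted p = 0.0329). That second call was lost when 1 of 4 libraries was left out: control replicates 2 and 3 with atp-2 RNAi (adjusted p = 0.0796 and 0.099) and prp-19-labelled replicates 1 and 2 with atp-2 RNAi (0.0779 and 0.102).

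egl-9 (chromosome V, 10468517 to 10476915, plus strand), the oxygen-sensing prolyl hydroxylase, was at 90.1, 79.3 and 79.2 CPM in the controls and at 64.7, 62.8 and 65.1 CPM in the prp-19-labelled libraries. With atp-2 RNAi it was at 91.9, 90.3 and 102.8 CPM on control RNAi and at 62.8, 65.7 and 63.1 CPM on the prp-19 label. The ranges were apart in both comparisons, and the prp-19 libraries held nearly the same level with and without atp-2 RNAi. The log2 changes were -0.37 (SE 0.0779, edgeR adjusted p = 0.000499) without and -0.57 (SE 0.0764, edgeR adjusted p = 3.46e-06) with atp-2 RNAi.

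vhl-1 (chromosome X, 11307356 to 11308518, plus strand), the ubiquitin ligase subunit that recognises HIF-1, was at 7.65, 12.4 and 13.8 CPM in the controls and at 7.87, 6.43 and 8.07 CPM in the prp-19-labelled libraries, so that control replicate 1 lay within the range of the other group. Its log2 change of -0.59 (SE 0.191, edgeR adjusted p = 0.0124) passed the test, but not without control replicate 2 (adjusted p = 0.0528), control replicate 3 (0.0885) or prp-19 replicate 2 (0.0539). With atp-2 RNAi its values were 9.85, 8.67 and 8.60 CPM against 8.65, 7.56 and 6.27 CPM, a log2 change of -0.28 (SE 0.187, edgeR adjusted p = 0.225) that did not pass.

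The regulators that set EGL-9 activity differed from each other in size of change. rhy-1 (chromosome II, 9161379 to 9163448, plus strand), an acyltransferase-like membrane protein whose own transcript is known to rise when HIF-1 is active, was at 207.6, 221.0 and 188.3 CPM in the controls. It was at 33.7, 32.5 and 70.2 CPM in the prp-19-labelled libraries. Replicate 3 of that group stood at 2.16 times the lowest library of its group, yet below every control. The log2 change was -2.19 (SE 0.264, edgeR adjusted p = 7.86e-05), and -2.66 without replicate 3. With atp-2 RNAi rhy-1 was at 109.9, 131.8 and 124.1 CPM on control RNAi and 38.0, 40.3 and 46.6 CPM on the prp-19 label. The groups did not overlap, with a log2 change of -1.55 (SE 0.263, edgeR adjusted p = 0.000854). An 82-base exon overlap with W07A12.8 on the other strand, which held 571 reads in all libraries against 8781 for rhy-1, could mix their reads, since no source used here gives the strand handling.

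cysl-1 (chromosome X, 9952579 to 9954533, minus strand), the cysteine synthase-like protein that binds EGL-9, was at 57.6, 51.3 and 56.5 CPM in the controls and 39.6, 36.6 and 34.5 CPM in the prp-19-labelled libraries. With atp-2 RNAi the levels were 65.0, 62.1 and 67.1 CPM and 42.8, 42.2 and 41.4 CPM. Every prp-19 library lay below every control library in both comparisons. The log2 changes were -0.58 (SE 0.0804, edgeR adjusted p = 5.17e-06) and -0.62 (SE 0.077, edgeR adjusted p = 1.4e-06).

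Of the relatives of cysl-1, cysl-2 (chromosome II, 14492874 to 14494451, minus strand), an enzyme that handles cyanide and is a known target of HIF-1, was at 318.0, 311.0 and 302.8 CPM in the controls. It was at 81.9, 69.3 and 100.8 CPM in the prp-19-labelled libraries. The group means stood at a ratio of 0.270, and the log2 change was -1.89 (SE 0.107, edgeR adjusted p = 4.96e-11). With atp-2 RNAi the values were 272.0, 326.5 and 317.6 CPM against 87.3, 91.9 and 90.4 CPM, again without overlap, and the log2 change was -1.76 (SE 0.106, edgeR adjusted p = 9.99e-11). Its exons share 36 bases with vnut-1 on the other strand, a gene with 1191 reads against 17307 for cysl-2.

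cysl-3 (chromosome V, 3774536 to 3776136, minus strand), a further cysteine synthase-like gene, was at 114.7, 113.2 and 118.9 CPM in the controls and at 60.6, 49.6 and 51.6 CPM in the prp-19-labelled libraries. With atp-2 RNAi it was at 91.9, 99.4 and 93.5 CPM and at 53.2, 56.1 and 50.9 CPM. The log2 changes were -1.10 (SE 0.0817, edgeR adjusted p = 1.17e-09) and -0.83 (SE 0.0812, edgeR adjusted p = 5.51e-08). The groups were apart in both. cysl-3 shares 74 bases of exon with rips-1 on the other strand, so reads of these neighbours cannot be fully told apart without strand.

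sqrd-1 (chromosome IV, 14219871 to 14224440, plus strand), the sulfide:quinone oxidoreductase that passes electrons from sulfide to ubiquinone, had the lowest ratio of the 9 genes. It was at 111.3, 119.8 and 120.0 CPM in the controls and at 9.28, 9.33 and 17.8 CPM in the prp-19-labelled libraries. With atp-2 RNAi it was at 115.2, 122.8 and 120.5 CPM and at 9.59, 10.9 and 12.3 CPM. The prp-19-labelled libraries thus held 0.104 and 0.0916 of the matching control mean. The log2 changes were -3.29 (SE 0.176, edgeR adjusted p = 2.9e-09) and -3.44 (SE 0.176, edgeR adjusted p = 1.92e-09), and without replicate 3 of the prp-19 label the first was -3.68. The locus contains many 21-base piRNA genes, of which 21ur-15671, antisense within an exon, was listed with 941 reads against 5557 for sqrd-1, and without strand the reads of the 2 cannot be told apart.

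ethe-1 (chromosome IV, 9506936 to 9508761, minus strand), the mitochondrial persulfide dioxygenase that acts after SQRD-1, was at 19.6, 22.7 and 18.7 CPM in the controls and at 11.3, 9.54 and 13.5 CPM in the prp-19-labelled libraries. With atp-2 RNAi it was at 21.0, 22.6 and 24.7 CPM and at 11.7, 11.6 and 12.1 CPM. Every library of the prp-19 label lay below the matching controls. The log2 changes were -0.84 (SE 0.132, edgeR adjusted p = 2.37e-05) and -0.94 (SE 0.125, edgeR adjusted p = 3.24e-06).

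**Figure D2:**
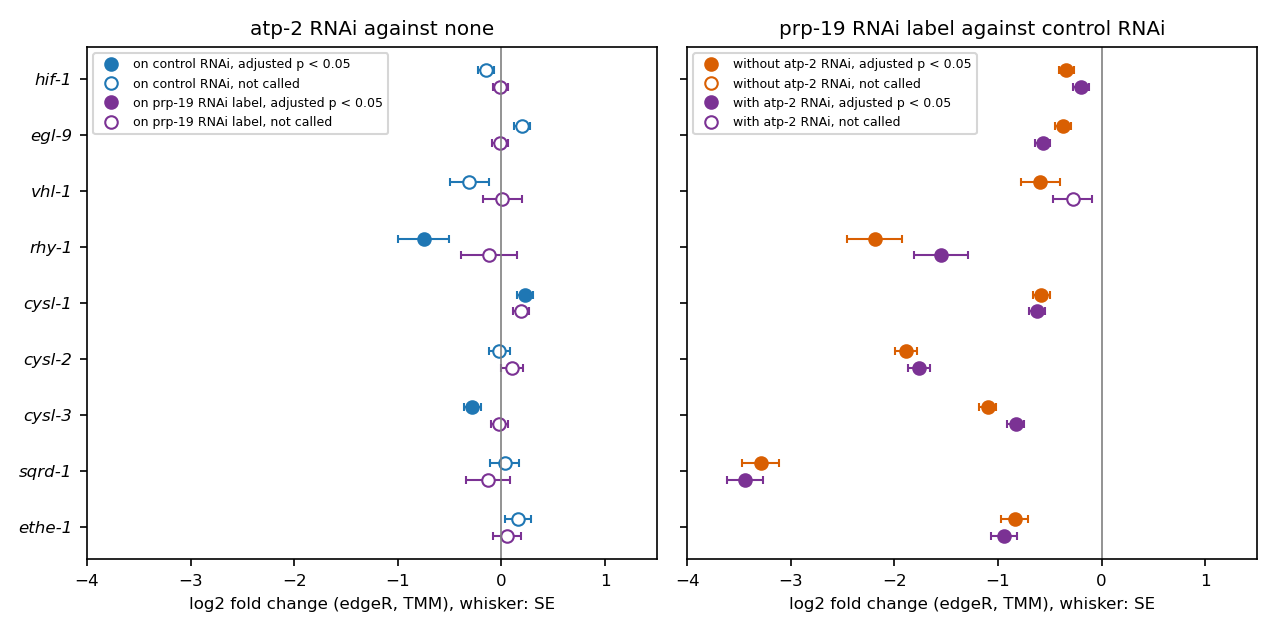
Log2 changes (x axis) of the 9 genes (y axis) from the edgeR fit with TMM factors, with whiskers for the SE, for atp-2 RNAi against none (left) and the prp-19 label against control RNAi (right); filled points passed adjusted p under 0.05. All right-hand values are below 0, from -0.20 for hif-1 with atp-2 RNAi to -3.44 for sqrd-1 with atp-2 RNAi, and the left-hand values lie between -0.75 and 0.23; with library totals in place of TMM factors hif-1 and egl-9 take a positive sign in the right-hand comparison without atp-2 RNAi.

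The result depended on how libraries were brought to one scale. Scaling by library totals moved the median of all tested genes in the prp-19 comparison without atp-2 RNAi from 0.0637 to 0.546 (log2). On that scale 57.5% of all genes were called higher and 12.4% lower. The 9 genes then gave 5 lower calls, for rhy-1, cysl-2, cysl-3, sqrd-1 and ethe-1. The log2 changes of hif-1 and egl-9 became 0.15 (adjusted p = 0.109) and 0.11 (adjusted p = 0.318), and those of vhl-1 and cysl-1 fell short of the threshold at -0.11 and -0.09. Relative to the all-gene median on that scale, the 9 genes lay between -0.40 (hif-1) and -3.36 (sqrd-1). Taking off that median brings values near those with TMM factors (-0.34 and -3.29 for these 2 genes). It is therefore no separate check of the fall. With atp-2 RNAi, where the median moved to 0.163, library totals called 7 of the 9 lower, with 19.4% of all genes called lower and 32.0% higher, and hif-1 was at -0.06 (edgeR adjusted p = 0.568). Vitellogenin reads took 21.9 to 25.7% of the control libraries, 6.85 to 17.7% of the prp-19-labelled libraries, 11.7 to 12.5% of the control libraries with atp-2 RNAi and 12.3 to 14.0% of those with both, and their part in the result was not tested.

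**Figure D3:**
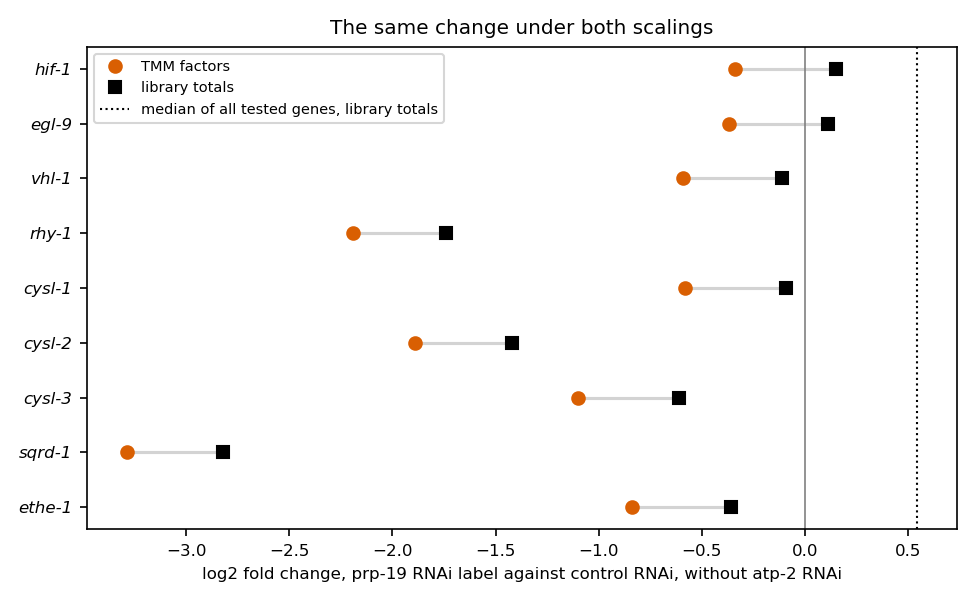
Log2 change (x axis) of the 9 genes (y axis) in the prp-19-labelled libraries against control RNAi, without atp-2 RNAi, with TMM factors (circles) and with library totals (squares); the dotted line marks the median of all tested genes with library totals, 0.546. All 9 squares lie left of the dotted line, and those of hif-1 (0.15) and egl-9 (0.11) lie right of 0, a sign opposite to their TMM values of -0.34 and -0.37. Distances from the dotted line come near the TMM values and are no separate check.

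Markers of tissues also differed in these comparisons. Without atp-2 RNAi, 6 of 9 tested germline and oocyte markers and 5 of 5 hypodermis markers were called higher in the prp-19-labelled libraries, and of 6 intestine markers 1 was called higher and 2 lower. Of 6 neuron markers 2 were higher and 1 lower, and 1 of 5 body wall muscle markers and the 1 sperm marker tested were higher. Of all genes 30.0% were called higher and 28.5% lower. With atp-2 RNAi, 3 of the 9 germline and oocyte markers were called higher on the prp-19 label, as were 3 of the 5 hypodermis markers, with 1 lower. The sperm marker was higher, 2 of 6 intestine markers were higher and 1 lower, 1 of 6 neuron markers was lower, and 0 muscle markers were called. Each direction held 26.5% of all genes. Summed germline and oocyte markers were at 51.2 to 63.9 CPM in the controls, 74.8 to 79.0 CPM in controls with atp-2 RNAi, 184.5 to 213 CPM in the prp-19-labelled libraries, and 169.5 to 186.7 CPM with both. In whole worms, fewer cells of a type and less RNA per cell cannot be told apart. The part of these markers in the lower values of the hypoxia and sulfide genes was not tested.

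Levels were compared between genes only per kilobase of exon. In the controls the order was cysl-2 with 277 CPM per kilobase, rhy-1 with 123, hif-1 with 114, cysl-3 with 107, sqrd-1 with 70.5, cysl-1 with 44.6, egl-9 and ethe-1 with 24.4 each, and vhl-1 with 12.6. In the prp-19-labelled libraries hif-1 was highest with 90.5 CPM per kilobase, followed by cysl-2 with 74.8, cysl-3, cysl-1 with 29.8 and rhy-1 with 27.3, and sqrd-1 with 7.31 was lowest, next to vhl-1 with 8.33. This is the order of the means. In the controls the libraries of hif-1 and rhy-1 overlapped: rhy-1 was at 113 to 132 CPM per kilobase, and replicate 1 of hif-1 at 117. On the prp-19 label hif-1, at 82.9 to 97.6, overlapped with cysl-2, at 61.7 to 89.8, and sqrd-1, at 5.59 to 10.7, with vhl-1, at 7.19 to 9.02. There cysl-1, at 27.9 to 32.0, lay within the range of rhy-1, at 19.5 to 42.1. The values are length-scaled averages over the union of exons and carry the same TMM factors.

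**Figure D4:**
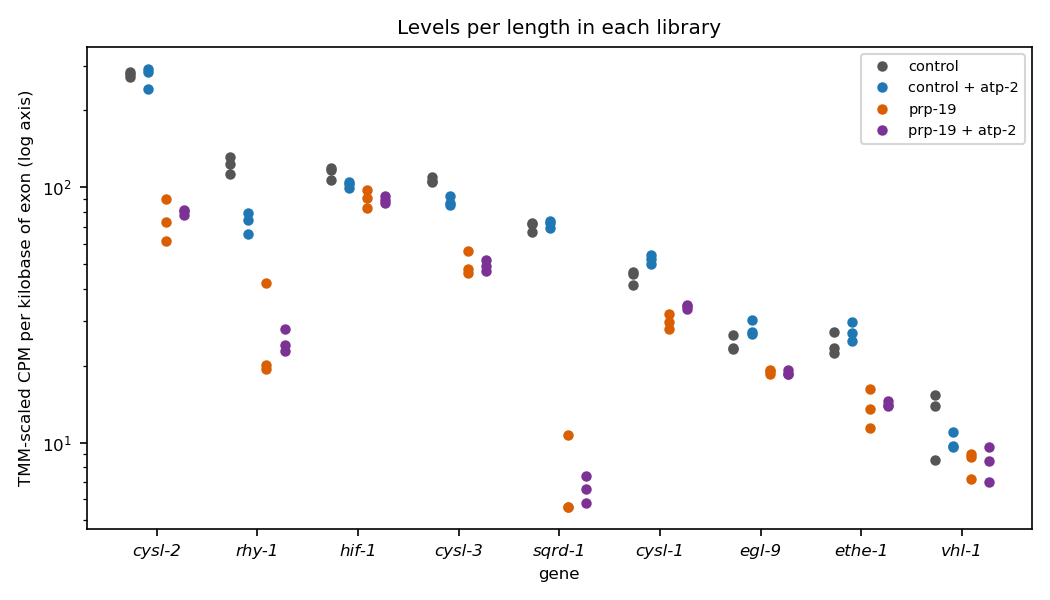
TMM-scaled CPM per kilobase of exon (y axis, log scale) of each of the 9 genes (x axis, ordered by control level) in every library, coloured by RNAi group (prp-19 stands for the prp-19-labelled libraries). In the controls the means run from 277 for cysl-2 down to 12.6 for vhl-1, and in the prp-19-labelled libraries hif-1 has the highest mean, 90.5.

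Spread within groups was small for most genes. The coefficient of variation over 3 libraries was at most 10.3% in the control group for every gene but vhl-1, which had 28.5%. It reached 47.1% for rhy-1 and 40.6% for sqrd-1 in the prp-19-labelled libraries, where replicate 3 was the highest library of both genes.

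Whether atp-2 RNAi changed these genes was asked first in worms on control RNAi. There, 1 of 9 genes rose and 2 fell, against 34.1% of all genes called in that comparison (17.0% higher, 17.1% lower). cysl-1 rose, with a log2 change of 0.23 (SE 0.0775, edgeR adjusted p = 0.0272), and all 3 libraries given atp-2 RNAi lay above all controls. rhy-1 fell, at -0.75 (SE 0.247, edgeR adjusted p = 0.0428), and cysl-3 fell, at -0.28 (SE 0.0792, edgeR adjusted p = 0.00874), each in all 3 libraries below all controls. egl-9 at 0.20 (SE 0.0767, edgeR adjusted p = 0.0568) and hif-1 at -0.15 (SE 0.0741, edgeR adjusted p = 0.121) did not pass, though their libraries did not overlap with the controls. The other 4 were at -0.31 (vhl-1, SE 0.186), -0.02 (cysl-2, SE 0.101), 0.03 (sqrd-1, SE 0.144) and 0.16 (ethe-1, SE 0.122). The median over the 9 genes was -0.02, beside 0.0257 over all genes.

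These calls depended on single libraries and on the scaling. rhy-1 lost its call without any one of the 3 control libraries, of the 3 control libraries with atp-2 RNAi, or of the 3 libraries with both RNAi (adjusted p = 0.0565 to 0.127), and with no filter on low counts (0.111), while its log2 change stayed between -0.82 and -0.68 in these fits. Without replicate 3 of the prp-19-labelled libraries, which are not in this comparison but share its estimate of the spread, rhy-1 was at -0.77 with a smaller SE (0.0776, edgeR adjusted p = 4.29e-09). cysl-1 lost its call when control replicate 2 was left out (adjusted p = 0.137), when either replicate 1 or 3 of the controls with atp-2 RNAi was left out (0.073 and 0.1), and in DESeq2 (0.1). Other fits added calls. With the 2 groups compared alone, egl-9 (0.21, edgeR adjusted p = 0.0241) and hif-1 (-0.14, edgeR adjusted p = 0.0462) passed. Without control replicate 1, egl-9 (0.26, edgeR adjusted p = 0.0264) and vhl-1 (-0.53, edgeR adjusted p = 0.0227) passed, and hif-1 passed without prp-19 replicate 3 (-0.17, edgeR adjusted p = 0.0366). With library totals, which moved the median of all genes to 0.293, cysl-3 was at -0.01 (adjusted p = 0.925) and rhy-1 at -0.49 (adjusted p = 0.0538), and 5 genes were called higher (egl-9, cysl-1, cysl-2, sqrd-1 and ethe-1), among 34.2% of all genes called higher and 7.7% called lower.

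In the prp-19-labelled libraries, atp-2 RNAi gave 0 called genes of the 9, where 9.77% of all genes were called, 5.06% higher and 4.72% lower. Of the 9, 1 gene (cysl-1, 0.19, SE 0.0797, edgeR adjusted p = 0.152) had an unadjusted p under 0.05, and DESeq2 called 0. The other log2 changes lay between -0.13 (sqrd-1, SE 0.21) and 0.10 (cysl-2, SE 0.106). Without replicate 3 of the prp-19-labelled libraries, 2 genes were called higher: rhy-1 at 0.35 (edgeR adjusted p = 0.0169) and cysl-2 at 0.26 (edgeR adjusted p = 0.0243). With library totals 0 of the 9 were called, among 2.77% of all genes called higher and 4.6% called lower.

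The atp-2 effect on the prp-19 label minus that on control RNAi, an interaction term, was called for 0 of the 9 genes, where 19.3% of all genes were called, 10.1% higher and 9.14% lower. For atp-2 itself the term was 1.59 (edgeR adjusted p = 3.33e-08), so it compares unequal falls of atp-2 mRNA. The part of that difference was not tested. DESeq2 also called 0, and 1 gene, cysl-3, had an unadjusted p under 0.05. The interaction values lay between -0.20 (egl-9, SE 0.109) and 0.64 (rhy-1, SE 0.367, edgeR adjusted p = 0.277). Without replicate 3 of the prp-19-labelled libraries, rhy-1 was called at 1.11 (edgeR adjusted p = 1.67e-07) and cysl-2 at 0.30 (edgeR adjusted p = 0.0392), and without replicate 1 of that group cysl-3 was called at 0.38 (edgeR adjusted p = 0.0145). With library totals egl-9 was called lower (-0.55, edgeR adjusted p = 0.00665), among 27.4% of all genes called lower and 3.88% called higher.

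**Figure D5:**
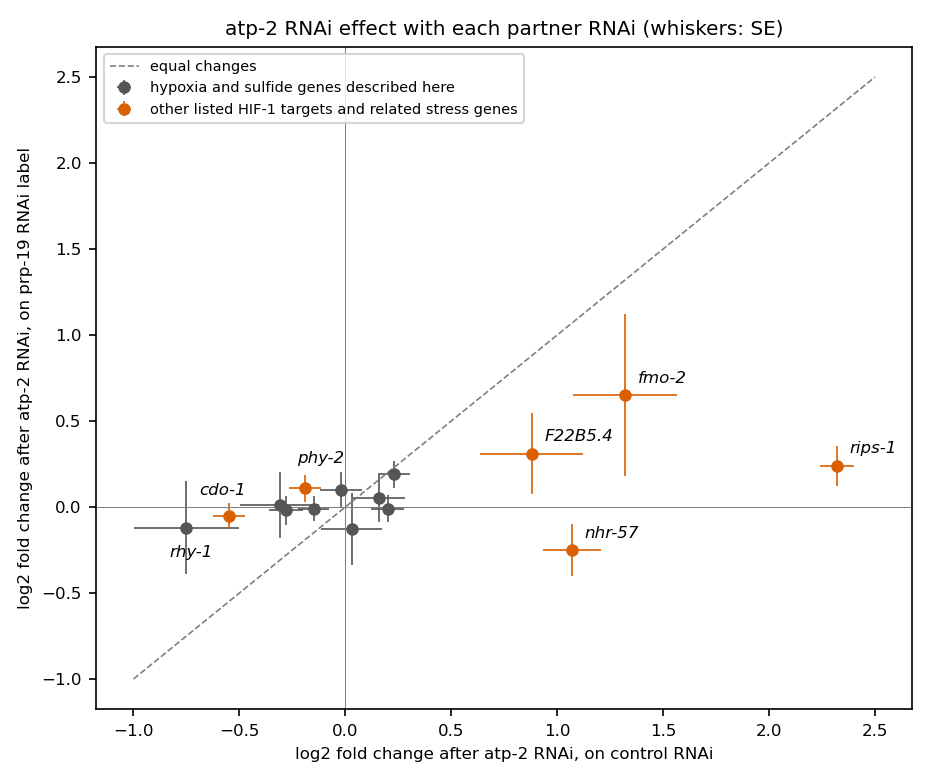
Log2 change after atp-2 RNAi on control RNAi (x axis) and in the prp-19-labelled libraries (y axis), with whiskers for the SE, for the 9 hypoxia and sulfide genes (grey) and 6 other genes listed as HIF-1 targets or related stress genes (orange); the dashed line marks equal changes. The grey points lie within -0.75 to 0.23 on the x axis, whereas rips-1 lies at 2.32 on it and 0.24 on the y axis.

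Of 6 tested genes for the HIF-1 partner, the VHL ligase and swan-1, 2 were called higher and 2 lower on the prp-19 label without atp-2 RNAi. Of all genes 30.0% were called higher there and 28.5% lower. With atp-2 RNAi 3 of the 6 were higher and 2 lower, where each direction held 26.5% of all genes. rbx-1, the RING subunit of cullin ligases, was at 0.40 (edgeR adjusted p = 0.00117) and 0.49 (0.000133). swan-1, a WD40 protein reported as an inhibitor of HIF-1 signalling, was at 0.33 (edgeR adjusted p = 0.0151) and 0.51 (0.000489), and the first call was lost in DESeq2 (0.0889) and without control replicate 1 (0.0556), control replicate 3 (0.0599) or prp-19 replicate 1 (0.0602). cul-2, the cullin of the VHL ligase, was at -0.45 (edgeR adjusted p = 2.47e-05) and -0.47 (1.41e-05), and elc-1, its elongin C, at -0.44 (edgeR adjusted p = 0.00327) and -0.36 (0.0136). With library totals cul-2 and elc-1 took a positive sign without atp-2 RNAi (0.03 and 0.05). Scaling by totals also ended the call of elc-1 with atp-2 RNAi (-0.22, adjusted p = 0.165), as did leaving out control replicate 1 or 2 with atp-2 RNAi (adjusted p = 0.0609 and 0.06). After atp-2 RNAi 0 of the 6 were called on either background, where 34.1% of all genes were called on control RNAi and 9.77% on the prp-19 label. On each, 1 gene (elc-1 on control RNAi and aha-1 on the prp-19 label) had an unadjusted p under 0.05, and DESeq2 called 0.

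Of 6 further genes, listed as known HIF-1 targets or related stress genes, 4 rose and 1 fell after atp-2 RNAi on control RNAi, where 17.0% of all genes were called higher and 17.1% lower. The list was chosen with earlier results of these data known, so its share does not measure enrichment. The gene that fell was cdo-1, at -0.55 (edgeR adjusted p = 9.95e-06). phy-2, at -0.19 (edgeR adjusted p = 0.0624), was not called. rips-1, a methyltransferase-like gene listed in the files as R08E5.3 (chromosome V, 3772021 to 3774609, plus strand), was at 28.4, 32.7 and 32.3 CPM in the controls and at 151.6, 157.4 and 156.4 CPM after atp-2 RNAi. The log2 change was 2.32 (SE 0.0795, edgeR adjusted p = 7.82e-14), while on the prp-19 label it was 0.24 (SE 0.116, edgeR adjusted p = 0.278), from 7.80 ± 0.374 to 9.18 ± 0.749 CPM (SD, n = 3). The interaction was -2.08 (edgeR adjusted p = 8.53e-09). nhr-57, a nuclear receptor whose transcript is used as a reporter of HIF-1, rose by 1.07 (edgeR adjusted p = 9.99e-06) on control RNAi, and fmo-2, a flavin-containing monooxygenase, by 1.32 (edgeR adjusted p = 0.000984). F22B5.4, a HIF-1 target, rose by 0.88 there (edgeR adjusted p = 0.00822), from a low level of 2.86 ± 0.763 to 5.27 ± 0.26 CPM (SD, n = 3 each). The 3 control libraries held 50 reads of F22B5.4 in all. On the prp-19 label 0 of the 6 were called after atp-2 RNAi, where 9.77% of all genes were called. There 0 of the 6 had an unadjusted p under 0.05, and DESeq2 called 0. Without replicate 3 of that label, however, fmo-2 was called at 1.62 (edgeR adjusted p = 0.00187) and nhr-57 at -0.40 (edgeR adjusted p = 0.0191). On the prp-19 label 4 of the 6 fell with and 4 without atp-2 RNAi, where 26.5% and 28.5% of all genes were called lower, among the latter cdo-1, which was at 0.0 with library totals. nhr-57 was not among the latter (-0.34, edgeR adjusted p = 0.0584), but passed in DESeq2 (-0.38, adjusted p = 0.0452). fmo-2, for example, was at -2.75 (edgeR adjusted p = 3.73e-05) without and -3.42 (edgeR adjusted p = 4.88e-07) with atp-2 RNAi, at 0.822, 0.858 and 3.52 CPM without. Without replicate 3, the highest of these, the first value was -3.74.

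Of 15 listed genes of cysteine and sulfur handling, 9 passed the filter. On the prp-19 label 5 of the 9 were lower and 0 higher, without and with atp-2 RNAi, beside 28.5% and 26.5% of all genes called lower. On control RNAi, atp-2 RNAi raised 2 and lowered 3, beside 17.0% and 17.1% of all genes, and with library totals the lower calls of cth-1 (-0.07, adjusted p = 0.484) and gcs-1 (-0.21, adjusted p = 0.0812) were lost. cth-1, a cystathionine gamma-lyase of the transsulfuration pathway, was at 464.9, 499.5 and 521.9 CPM in the controls and 171.8, 196.6 and 245.9 CPM in the prp-19-labelled libraries, a log2 change of -1.28 (edgeR adjusted p = 1.58e-09). gcs-1, the rate-limiting enzyme of glutathione synthesis, was at 199.8, 198.8 and 212.2 CPM in the controls and 91.2, 91.0 and 84.9 CPM on the prp-19 label, at -1.19 (edgeR adjusted p = 1.05e-10). mpst-3, a mercaptopyruvate sulfurtransferase, was at -0.58 (edgeR adjusted p = 4.15e-05), a call lost with library totals (-0.10, adjusted p = 0.355), where cth-2 and suox-1, also among the 5, took a positive sign (0.01 and 0.16). Its relative mpst-1 rose after atp-2 RNAi on control RNAi, by 0.80 (edgeR adjusted p = 0.000231).

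The genes whose pattern over the 12 libraries came closest to those of 3 of the members were named by the smallest root mean square difference of centred log2 CPM, among 9287 genes of at least 5 CPM. For hif-1 these were mab-31 at 0.0464, twf-2 at 0.0501 and sec-31 at 0.0516, where the median over all genes was 0.336. For cysl-2 they were spp-8 at 0.134, F41C6.7 at 0.141 and aldo-2 at 0.141, beside a median of 0.943. For sqrd-1 the closest was 21ur-15671 at 0.205, the piRNA locus within its own exon, followed by B0410.3 at 0.217 and F17B5.1 at 0.279, beside a median of 1.7. Without strand, reads of 21ur-15671 cannot be told apart from those of sqrd-1, so that match may be of sqrd-1 with itself.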

How the data were processed

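The deposited table held the authors' raw counts of reads per gene, whole numbers for 45132 genes in 12 libraries. The submitters' processing notes name FastQC, STAR 2.7.5c, HISAT2 2.1.0, R 4.0.5, DESeq2 and the builds ce11 and WBcel235, with no role or order. The sources used here do not give the counting program or strand handling. Counts were tested with edgeR 4.0.16 in R 4.3.3, with filterByExpr (12850 genes kept), TMM factors of 0.782 to 1.26, a robust quasi-likelihood fit with 1 coefficient per group (8 residual degrees of freedom) and Benjamini-Hochberg adjustment over all genes tested, called at an adjusted p under 0.05. The script was tested on simulated data first. Lengths and coordinates are from the Ensembl annotation of WBcel235. Deviations of same-numbered libraries correlated at -0.105 to 0.12 over 18 pairs, and those of unlike-numbered libraries at -0.108 to 0.139. No pairing by number was seen, though with 3 libraries per group this cannot exclude it. Alternatives were RLE size factors, library totals, DESeq2 1.42.0, no filter, a replicate block, the 2 groups compared alone and each library left out.

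The members and lists were chosen with earlier results of these data known. Pathway genes were named by a rule: up to 4 called genes per list with the largest absolute log2 fold change. SE was taken as the size of the log2 change over the root of F.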

Additional observations from a re-analysis of the deposited data

Results flagged for a closer look

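For 6 genes of the pathway lists the atp-2 effect differed between the prp-19-labelled libraries and those on control RNAi by the test of the interaction (edgeR quasi-likelihood test over all genes). These were 3 of 6 tested HIF-1 targets and related stress genes, 3 of 9 of cysteine and sulfur handling, and 0 of 6 for the HIF-1 partner, the VHL ligase and swan-1. Of all genes, 19.3% were called. It was negative for rips-1 (-2.08, adjusted p = 8.53e-09), nhr-57 (-1.33, adjusted p = 0.000206) and mpst-1 (-0.67, adjusted p = 0.0304), and positive for cdo-1 (0.50, adjusted p = 0.00228), cth-2 (0.51, adjusted p = 0.00782) and gcs-1 (0.45, adjusted p = 0.00457). cdo-1, a cysteine dioxygenase, and cth-2, a cystathionine gamma-lyase, were outside the rule for named genes and are named after their values were seen. The call of mpst-1 was lost in DESeq2 (adjusted p = 0.112), with no filter (0.0541) and in 6 of 12 fits that left out a library. With library totals gcs-1 was at 0.10 (adjusted p = 0.602), cdo-1 at 0.15 (adjusted p = 0.398) and cth-2 at 0.18 (adjusted p = 0.177), none of them called. The members themselves gave 0 calls of the interaction, where 19.3% of all genes were called. The fall of atp-2 mRNA also differed between the 2 partners (interaction 1.59), and its part in these values was not tested.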

How the results depend on the processing

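Over 801 member values under alternatives, 730 kept their direction and side of the threshold. With the same sign, 26 lost a call and 13 gained one. A further 32 changed sign, and some of these also lost or gained a call, which the 26 and 13 do not count. The calls of the members numbered 3 after atp-2 RNAi on control RNAi, against 5 with library totals, 5 with the 2 groups alone and 1 to 4 with a library left out. They numbered 0 on the prp-19 label, against 0 to 2 with a library left out. They numbered 9 in the prp-19 comparison without atp-2 RNAi, against 5 with library totals, and 0 for the interaction, against 1 with library totals and 0 to 2 with a library left out. With library totals the sign changed after atp-2 RNAi on control RNAi for hif-1 (0.12) and cysl-2 (0.24), after atp-2 RNAi on the prp-19 label for vhl-1 (-0.07) and ethe-1 (-0.02), in the prp-19 comparison for hif-1 (0.15), egl-9 (0.11), cul-2 (0.03), elc-1 (0.05), nhr-57 (0.15), cdo-1 (0.0), cth-2 (0.01) and suox-1 (0.16), and for the interaction for hif-1 (-0.21), vhl-1 (-0.03), cysl-2 (-0.21) and cysl-3 (-0.09). With no filter egl-9 was at 0.0 after atp-2 RNAi on the prp-19 label. With a library left out, the log2 change after atp-2 RNAi on control RNAi ran from -0.08 to 0.05 for cysl-2 and from -0.01 to 0.06 for sqrd-1. On the prp-19 label it ran from -0.06 to 0.05 for hif-1, -0.03 to 0.01 for egl-9, -0.11 to 0.13 for vhl-1, -0.31 to 0.35 for rhy-1, -0.02 to 0.26 for cysl-2, -0.07 to 0.09 for cysl-3, -0.29 to 0.25 for sqrd-1 and -0.06 to 0.20 for ethe-1. The prp-19 change of F22B5.4 ran from -0.17 to 0.29. The interaction ran from -0.07 to 0.03 for cysl-1, -0.31 to 0.23 for sqrd-1, -0.21 to 0.05 for ethe-1 and -1.01 to 0.32 for fmo-2. Over all genes, 1256 were called after atp-2 RNAi on the prp-19 label, against 547 with the 2 groups alone and 696 to 2887 with a library left out (2887 without prp-19 replicate 3), and 2475 for the interaction, against 4017 with library totals. The replicate block called 3, 0, 9, 8 and 0 members, as the fit without it. The cause was not tested.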
